A study of Mus musculus with 9 samples.

Results

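In RS (round spermatid) cells, 83 genes had lower transcript levels only when octyl-L-2HG was present: their level was nearly the same with oxamate as with vehicle, and lower when octyl-L-2HG was added to oxamate. The genes were chosen on these very values. The mean normalized count over the 9 libraries had to be at least 100, the oxamate mean had to lie between 0.9 and 1.1 of the vehicle mean, the mean with both compounds had to be at or below 0.65 of each other mean, and each of the 3 libraries with both compounds had to lie below all 6 others. Of 25128 genes with normalized values, 10715 had a mean of at least 100 and 83 of these met every condition.

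The RS cells came from adult Stra8-Tom mice older than 10 weeks on a C57Bl/6 background, labelled WT. In these mice a Stra8 promoter drives Cre recombinase in the male germ line, Cre switches on a tdTomato reporter, and cells are sorted by their red fluorescence and size. All 3 groups were kept in culture for 24 h with 0.15% DMSO, the vehicle. The first group received no other agent, the second received 24 mM oxamate, and the third 24 mM oxamate with 0.3 mM octyl-L2HG. No group received octyl-L-2HG without oxamate, so the values describe octyl-L-2HG added to oxamate and not octyl-L-2HG by itself. Each group had 3 libraries, and the study's text speaks of incubation in triplicate, which describes separate incubations but not whether the cells came from separate animals, so the spread between libraries may not cover that between animals.

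L-2HG is a small dicarboxylic acid that resembles 2-oxoglutarate and competes with it in dioxygenases that demethylate histones, oxidise DNA and RNA methyl groups and hydroxylate HIF. In the testis it is made by lactate dehydrogenase C, and oxamate inhibits lactate dehydrogenases. The octyl ester lets L-2HG cross membranes. RS are the haploid cells that follow meiosis. They transcribe many genes found in no other tissue, among them kinases, RNA-binding proteins and parts of the sperm head and tail, and store much of this RNA for the time when chromatin is packed with protamines.

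The libraries held 32339533 to 39888396 counted reads. All 19 markers of round spermatids were measured at 100 or more normalized counts, whereas the markers of macrophages together reached at most 258, those of Sertoli cells 234 and those of Leydig cells 41.2. Endothelial markers summed to 571 to 630.1 with vehicle, 588 to 626 with oxamate and 487 to 535 with both, and of 5 measured 2 had a mean of 100 or more. Their sum was lower with both, but against vehicle 1 was called lower, Vwf at 0.707 of vehicle, and 1 higher, Kdr at 1.38. The part of these markers in the results was not tested. All 5 defining markers of erythroid cells were absent from the genes with normalized values. The summed round spermatid markers were 135539 to 140579.6 with vehicle, 132227 to 133539 under oxamate and 124667 to 125868 under both compounds. The 10 markers of elongating spermatids, among them protamines and transition proteins, summed to 148603 to 150876 with vehicle, 138069 to 143670.0 with oxamate and 123154 to 129429 with both. Unlike the selected genes, they were already lower with oxamate, where 4 of the 10 were called lower, beside 1.22% of all genes. They were lower again with both, and their part in the results was not tested. In bulk RNA, fewer cells of a stage and less RNA per cell cannot be told apart. The markers of peritubular cells summed to 5995 to 6135, 5737 to 6045 and 4839 to 4978, and only 1 of 6, Actg2, was measured at 100 or more. Actg2 stood at 0.983 of vehicle with oxamate and 0.811 with both, and its part in the results was not tested. Spermatocyte markers summed to 84061 to 90596, 73313 to 81353 and 86885 to 90099.

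Over the 83 genes, the level with both compounds was 0.348 to 0.648 of vehicle, with a median of 0.584, beside 1.04 over all genes of mean 100 or more. Against oxamate the median was 0.593, and the oxamate level had a median of 0.983 of vehicle. The level was at or below 0.5 of vehicle in 9 genes, between 0.5 and 0.6 in 48 and above 0.6 in 26. All 83 were called lower than vehicle by edgeR's quasi-likelihood test, beside 10.6% of all genes tested called lower and 7.48% called higher, and all 83 were called lower than oxamate, beside 8.06% called lower and 3.18% called higher. For oxamate against vehicle 0 were called in either direction, beside 1.22% of all genes called lower and 3.97% called higher. DESeq2 called 0 lower and 0 higher, and at an unadjusted p under 0.05 edgeR had 0 lower and 0 higher. These contrasts chose the genes, so nothing is read from the counts. A gap between the 3 libraries with both compounds and the 6 others, in that direction, was seen in 11.7% of all genes of mean 100 or more. Of the 6836 genes within the oxamate window, 764 had that gap and 1449 had it upwards. With the fold limits turned round, only 2 genes were higher, Ubxn2b at 1.59 and Bin2 at 1.6 of vehicle.

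**Figure D1:**
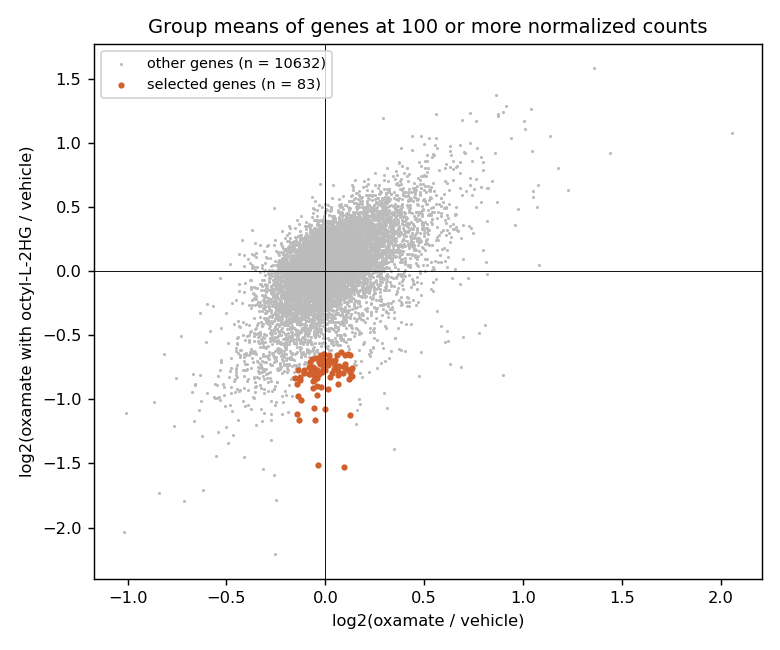
Each point is a gene of mean 100 or more normalized counts, plotted by log2 of the oxamate mean over the vehicle mean (x axis) and log2 of the mean with both compounds over the vehicle mean (y axis). The 83 selected genes (orange) form a band near 0 on the x axis and between -1.52 and -0.63 on the y axis, as the rule requires.

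The libraries of one group did not all behave alike for these genes. Relative to the vehicle mean, the median gene stood at 0.929, 1.00 and 1.06 in the vehicle libraries, at 0.825, 1.08 and 1.06 in the oxamate libraries and at 0.559, 0.580 and 0.599 in those with both compounds. Oxamate library 4 was the lowest of its group in 73 of the 83 genes (88.0%), beside 45.1% of all genes with a mean from 100 to 1000. Vehicle library 1 was the lowest of its group in 50 (60.2%, beside 36.8%), and in 49 genes both held (59.0%, beside 27.6%). Of the libraries with both compounds, library 7 was the lowest in 45, library 8 in 23 and library 9 in 15 genes. Without oxamate library 4 the median oxamate level was 1.07 of vehicle, with a range of 0.823 to 1.26. The level then lay above the limit of 1.1 in 29 genes and below 0.9 in 3. Of the genes that met the rule without vehicle library 3, 50 were among the 83. That count follows every condition of the rule and not the oxamate window alone. The window chose the genes, so some can leave it when any library is dropped, and nothing further is read from these counts.

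**Figure D2:**
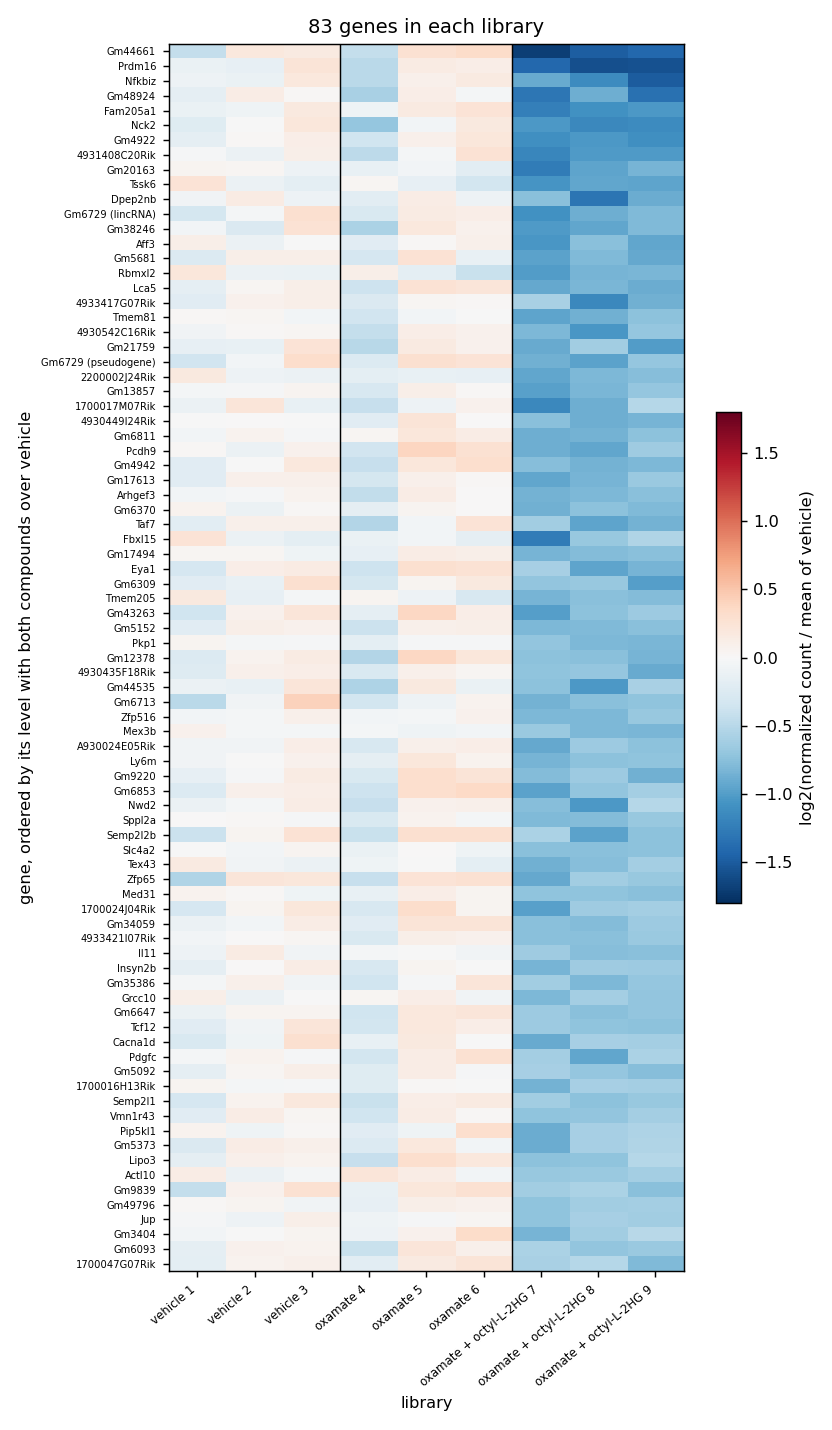
Rows are the 83 genes, ordered by their level with both compounds over vehicle, and columns the 9 libraries. Colour gives log2 of the normalized count over the vehicle mean. The 3 right columns are blue in every row, and oxamate 4 is bluer than oxamate 5 and 6 in most rows.

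Several of the genes with the highest counts are known from male germ cells. Tex43, which encodes a microtubule protein of the sperm tail, stood first with 4329.9 normalized counts per kilobase of its longest transcript, beside a median of 133 over the 83. Its normalized counts were 3607, 3092 and 3010.3 in the vehicle libraries, 3066, 3222 and 2870.0 in the oxamate libraries and 1784, 1899 and 2117 in those with both. The values with both compounds were well apart from the others, at 0.597 of vehicle. Rbmxl2, a nuclear RNA-binding protein of germ cells that takes part in splicing, had 3167, 2571 and 2548 in the vehicle libraries, 2970.3, 2446 and 2098 in the oxamate libraries and 1380.2, 1548 and 1563 in those with both. Its group means were 2762 ± 351, 2505 ± 439 and 1497 ± 102 (SD, n = 3), so the mean with both was 0.542 of vehicle and 0.598 of oxamate. Tssk6, a testis-specific kinase needed for sperm chromatin packing and fertility, had 1438, 1134 and 1082 in the vehicle libraries, 1249, 1096 and 972 in the oxamate libraries and 586, 637 and 634 in those with both. It was at 0.508 of vehicle and was the only one of the 19 round spermatid markers in the set. Tmem81, a sperm surface protein that joins Izumo1 and Spaca6 in fertilization, had 879, 888 and 839 in the vehicle libraries, 683, 840.2 and 864 in the oxamate libraries and 448, 477 and 521 in those with both. Oxamate library 4 was lower than the other oxamate libraries, yet higher than any library with both compounds. Actl10, an actin-like protein, had 1982, 1695 and 1768 in the vehicle libraries, 2104, 1983 and 1755 in the oxamate libraries and 1136, 1141 and 1184 in those with both. Tmem205, a transmembrane protein, had 1579, 1268 and 1365 in the vehicle libraries, 1456, 1312 and 1146 in the oxamate libraries and 784, 836 and 820.0 in those with both. The RIKEN gene 1700016H13Rik had 1746, 1648 and 1664 in the vehicle libraries, 1454, 1710.3 and 1671 in the oxamate libraries and 934, 1110.1 and 1098 in those with both. In Tssk6, Rbmxl2, Tmem205 and Actl10, as in the RNA-binding gene Mex3b, vehicle library 1 and oxamate library 4 were the highest of their groups, the reverse of most of the set.

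Tssk6 and Rbmxl2 consist of 1 exon in GENCODE M21 and have more CpG dinucleotides in their promoters than the median of the set, so their windows are shown with each CpG in capitals. The windows run from 250 bases before to 50 after the start in RefSeq (GRCm38.p6), Rbmxl2 at chr7:107209195-107209494 and Tssk6 at chr8:69901934-69902233, both on the plus strand. They hold 29 and 14 CpGs, beside a median of 4 in the set and 20 over all genes of mean 100 or more.
Rbmxl2: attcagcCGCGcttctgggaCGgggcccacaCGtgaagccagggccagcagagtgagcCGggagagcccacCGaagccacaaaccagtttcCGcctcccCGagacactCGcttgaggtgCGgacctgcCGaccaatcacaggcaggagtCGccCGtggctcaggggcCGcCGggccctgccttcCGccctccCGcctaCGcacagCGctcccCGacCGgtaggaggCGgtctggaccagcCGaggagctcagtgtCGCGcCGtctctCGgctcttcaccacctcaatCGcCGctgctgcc
Tssk6: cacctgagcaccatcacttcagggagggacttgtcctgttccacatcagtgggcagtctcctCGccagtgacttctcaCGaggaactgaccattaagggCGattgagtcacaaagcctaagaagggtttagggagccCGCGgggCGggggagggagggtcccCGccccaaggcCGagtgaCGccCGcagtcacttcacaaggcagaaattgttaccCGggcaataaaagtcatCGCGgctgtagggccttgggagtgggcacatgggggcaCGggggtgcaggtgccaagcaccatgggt

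**Figure D3:**
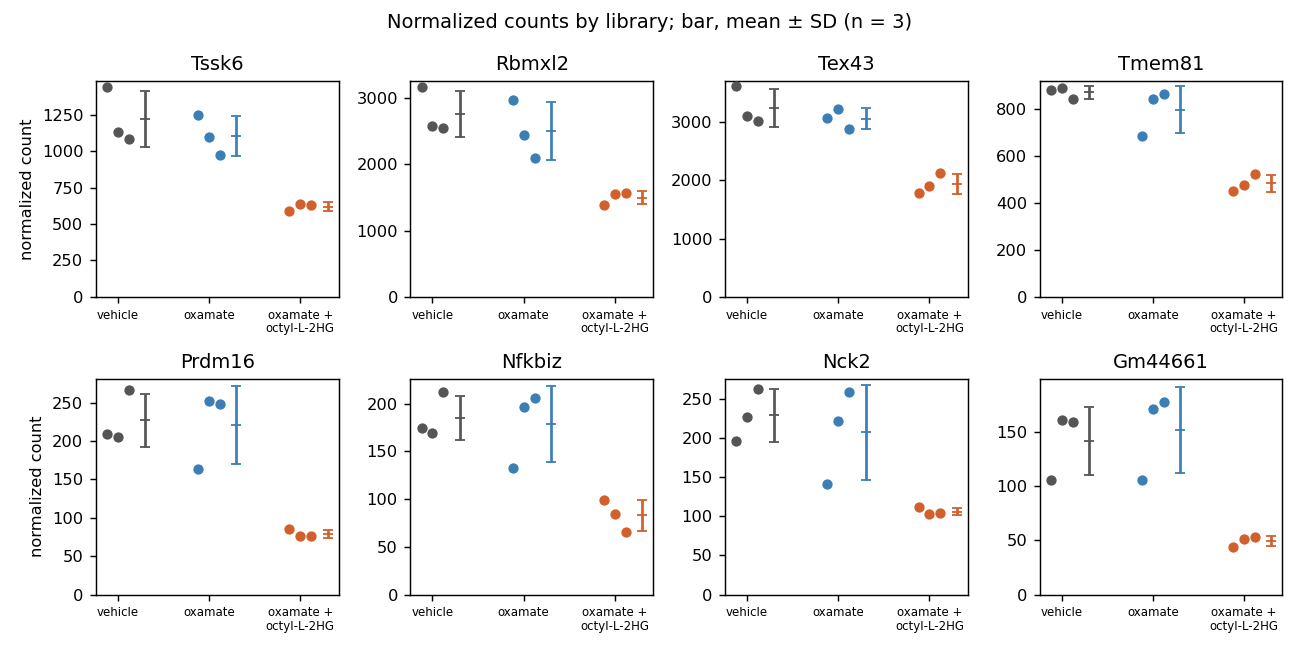
Normalized counts of 8 of the selected genes in each library (points), with the mean and SD of the 3 libraries of each group (bars), on axes that start at 0. In each panel the 3 points with both compounds lie below the 6 others, and the oxamate points spread most, relative to their mean, in Nck2 and Gm44661.

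The genes with established symbols are described by their known roles, a grouping made by hand after their values were seen. Of the gene lists, zinc finger transcription factors held 2 of the set among 236 of mean 100 or more (0.847%, beside 0.775% of all genes). Among regulators of transcription, Prdm16, a zinc finger regulator of cell fate in brown fat and stem cells, had 209.7, 205 and 266 in the vehicle libraries, 163, 252 and 248 in the oxamate libraries and 85.3, 76.1 and 76.8 in those with both, which is 0.350 of vehicle. The 3 values with both compounds were close together, while the oxamate values spread widely. Nfkbiz, a nuclear cofactor of NF-kappaB, had 174, 169.6 and 212 in the vehicle libraries, 132, 196 and 206 in the oxamate libraries and 98.8, 84.2 and 65.5 in those with both and stood at 0.447 of vehicle. Aff3, of a family that acts in transcription elongation, had 171, 148 and 159 in the vehicle libraries, 138, 163 and 169.9 in the oxamate libraries and 77.5, 94.5 and 83.3 in those with both. Taf7, a subunit of TFIID, had 228, 277 and 277 in the vehicle libraries, 180.0, 252 and 308 in the oxamate libraries and 169.6, 135 and 145 in those with both, and its oxamate library 4 came near the highest library with both compounds. Eya1, a transcriptional coactivator and phosphatase, had 157, 210.4 and 215 in the vehicle libraries, 149.6, 238 and 232 in the oxamate libraries and 128, 100.3 and 109 in those with both. Aff3, Taf7 and Eya1 stood at 0.533, 0.575 and 0.578 of vehicle. Named after their values were seen, the basic helix-loop-helix factor Tcf12 was at 0.614, the Mediator subunit Med31 at 0.601, and the zinc finger genes Zfp516 and Zfp65 at 0.587 and 0.5998. Most of these transcripts were scarce: per kilobase, Prdm16 had 20.4 normalized counts and Aff3 22.3.

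Other genes encode adaptors, signalling proteins and adhesion proteins. Nck2, an adaptor that links receptors to actin, had 196, 227 and 263 in the vehicle libraries, 141, 221 and 259 in the oxamate libraries and 111, 103 and 104 in those with both. Oxamate library 4 was the lowest outside the group with both compounds. Arhgef3, an activator of RhoA, had 341, 346 and 369 in the vehicle libraries, 260.1, 386 and 353 in the oxamate libraries and 194, 202 and 209.7 in those with both, at 0.573 of vehicle. Fbxl15, which selects substrates for a ubiquitin ligase, had 274, 216 and 205 in the vehicle libraries, 213, 224 and 207 in the oxamate libraries and 96.6, 144 and 159 in those with both, so that the libraries with both compounds differed among themselves more than in most genes. Pcdh9, a protocadherin, had 191, 175 and 198 in the vehicle libraries, 148, 245 and 227 in the oxamate libraries and 102, 98.0 and 121 in those with both. Named after their values were seen, the junction proteins Pkp1 and Jup were at 0.582 and 0.637 of vehicle, the secreted factors Il11 and Pdgfc at 0.607 and 0.618, the anion exchanger Slc4a2 at 0.597 and the L-type calcium channel subunit Cacna1d at 0.616. Slc4a2 varied little between libraries of a group, with 937, 907 and 972 in the vehicle libraries, 865, 939 and 892 in the oxamate libraries and 558, 557 and 565 in those with both. Lca5, a protein of cilia, had 743 ± 71.5 with vehicle, 777 ± 174 under oxamate and 404 ± 13.5 under both compounds (SD, n = 3). Fam205a1 had 566 ± 64.7, 616 ± 70.1 and 261 ± 18.1 in the same order, and Dpep2nb 123.3 ± 11.5, 119.8 ± 13.4 and 63.0 ± 12.1.

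Genes known only by provisional names made up 44 of the 83 (53.0%), beside 16.5% of all genes of mean 100 or more. Gm44661 had the lowest level of the set with both compounds, 0.348 of vehicle, with 105.7, 161 and 158 in the vehicle libraries, 105.7, 171 and 178 in the oxamate libraries and 43.8, 50.7 and 53.4 in those with both. Vehicle library 1 and oxamate library 4 were again lower than their groups. Gm48924, a long noncoding RNA, had 122.6, 152 and 139 in the vehicle libraries, 92.4, 149 and 135 in the oxamate libraries and 56.2, 74.9 and 54.3 in those with both. Gm4922 had 603, 682 and 733 in the vehicle libraries, 525, 716 and 773 in the oxamate libraries and 314, 329 and 313 in those with both, at 0.473 of vehicle. The RIKEN gene 4931408C20Rik was at 0.477 of vehicle and the antisense transcript Gm20163 at 0.499, and the strand setting used in counting was not given, so reads from a gene on the other strand cannot be told apart in the latter. By GENCODE M21 biotype, which matched all 83, 49 genes were protein coding (59.0%, beside 85.9% of all genes), 17 were long noncoding RNAs (20.5%, beside 11.3%) and 14 were pseudogenes (16.9%, beside 1.99%). At a mean from 100 to 1000, provisional names made up 54.5% of the set and 24.3% of all genes. At that level 57.1% were protein coding, beside 77.5%. Long noncoding RNAs were then 22.1%, close to the 18.0% of all genes, and pseudogenes 16.9%, beside 3.05%.

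Some of the genes were copies of one another. A transcript of another gene matched at 90% identity or more over at least 50% of the shorter transcript in 27 of the 83, and in 15 that other gene was in the set too. Reads of such copies may be shared or discarded in counting, so the values of a copy are uncertain and copies are not independent of each other. Both families below were named after their values were seen. On chromosome 5, Gm3404, Gm6309, Gm6370 and 4930449I24Rik were 94.9% to 97.7% identical. They stood at 0.640, 0.579, 0.574 and 0.565 of vehicle. Of 3 relatives that were not selected, Gm3402 and Gm3409 were at 0.577 and 0.642 of vehicle but had a mean under 100, and Gm6408 was at 0.778 of vehicle. The promoter windows of the 4 selected genes (RefSeq, GRCm38.p6) are shown because they share an unbroken run of 56 bases, given in capitals, and hold only 0 to 2 CpGs each. Gm3404 lies at chr5:146525551-146525850 (plus strand), Gm6309 at chr5:146170733-146171032 (minus strand), Gm6370 at chr5:146491107-146491406 (plus strand) and 4930449I24Rik at chr5:146502149-146502448 (plus strand).
Gm3404: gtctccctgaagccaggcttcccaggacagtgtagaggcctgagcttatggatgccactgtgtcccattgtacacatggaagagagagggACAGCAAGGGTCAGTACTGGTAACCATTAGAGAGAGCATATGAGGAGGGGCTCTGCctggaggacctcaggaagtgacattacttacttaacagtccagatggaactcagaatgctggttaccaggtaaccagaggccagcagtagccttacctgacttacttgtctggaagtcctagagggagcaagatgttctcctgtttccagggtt
Gm6309: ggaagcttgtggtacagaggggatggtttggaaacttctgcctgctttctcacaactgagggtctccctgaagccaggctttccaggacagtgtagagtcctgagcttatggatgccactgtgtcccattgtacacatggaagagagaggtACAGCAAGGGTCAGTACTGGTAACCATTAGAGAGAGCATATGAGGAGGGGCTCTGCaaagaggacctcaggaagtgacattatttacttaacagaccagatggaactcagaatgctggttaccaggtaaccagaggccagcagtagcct
Gm6370: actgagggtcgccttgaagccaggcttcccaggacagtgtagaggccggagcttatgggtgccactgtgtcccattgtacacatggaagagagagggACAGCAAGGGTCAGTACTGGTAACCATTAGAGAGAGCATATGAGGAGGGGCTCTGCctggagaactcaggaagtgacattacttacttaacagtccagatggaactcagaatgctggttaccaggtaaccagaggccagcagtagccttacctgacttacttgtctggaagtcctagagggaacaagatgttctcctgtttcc
4930449I24Rik: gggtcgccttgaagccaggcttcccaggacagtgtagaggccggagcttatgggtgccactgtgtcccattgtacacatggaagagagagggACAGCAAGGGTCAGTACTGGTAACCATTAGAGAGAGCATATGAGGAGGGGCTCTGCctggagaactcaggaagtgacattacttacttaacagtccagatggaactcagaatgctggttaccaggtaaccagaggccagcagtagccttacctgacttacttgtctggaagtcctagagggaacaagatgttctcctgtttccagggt

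The second family resembles a SUMO peptidase gene and is spread over several chromosomes. Semp2l1, Semp2l2b, Gm12378, Gm4942 and Gm9839 were at 0.624, 0.596, 0.584, 0.571 and 0.637 of vehicle. Semp2l1 had 877, 1131 and 1233 in the vehicle libraries, 818, 1176 and 1208 in the oxamate libraries and 701, 648 and 672 in those with both. A further 7 near-identical copies of mean 100 or more were not selected, at 0.591 to 0.792 of vehicle. Across all families, 31 relatives outside the set had a mean of 100 or more, and 30 of them had a lower mean with both compounds than with vehicle. The exception was Gm6124, at 1.29 of vehicle. Since reads can pass between copies, this does not count as separate evidence.

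**Figure D4:**
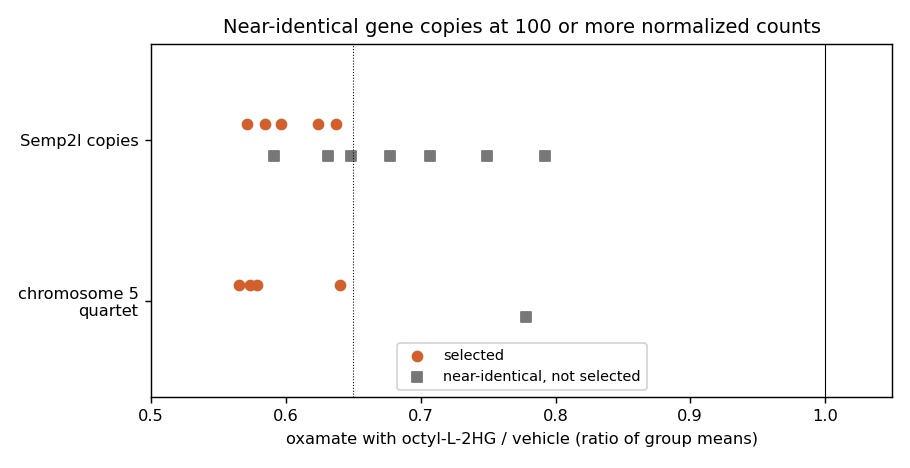
The ratio of the mean with both compounds to the vehicle mean (x axis) for selected genes (circles) and near-identical genes outside the set (squares) of both families, with the selection limit of 0.65 dotted. Only genes of mean 100 or more are drawn. All of these lie below 1, and the unselected ones reach 0.792.

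Features that the rule did not use are given as a description, without a test. Many of the genes had few exons: 18 of 83 consisted of 1 exon (21.7%, beside 4.92% of all genes of mean 100 or more), and 62 had at most 5 (74.7%, beside 33.5%). The share that was selected was 3.42% among 1-exon genes, 1.68% at 2 exons, 1.363% at 3 to 5, 0.285% at 6 to 10 and 0.302% above 10. Over all genes of mean 100 or more, the median log2 ratio of both compounds to vehicle was -0.06 for 1-exon genes and 0.13 above 10 exons. Among protein-coding genes alone, 63.3% of the selected and 24.7% of all had at most 5 exons, and without the genes that have a near-identical relative it was 67.9% of the selected. The longest transcript had a median of 1828 bases, beside 3002, but the medians of protein-coding genes were close, at 3211 and 3316.

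The genes lay mostly at low levels. The median of the mean normalized count was 271, beside 844 for all genes of mean 100 or more. The share selected was 1.89% at 100 to 200, 1.07% at 200 to 500, 1.12% at 500 to 1000, 0.266% at 1000 to 2000 and 0.0578% above 2000. Lower counts also carry more sampling noise. No gene of the set lay on the X chromosome, beside 2.56% of all genes. A set of this size would hold few X genes at that share, so nothing is read from the absence. The X-linked Gm4916 missed only the limit against oxamate, at 0.653.

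Of the set, 52 genes under 51 symbols had a RefSeq promoter window. These held a median of 4 CpGs in 300 bases, beside 20 over 8212 symbols of mean 100 or more. At most 5 CpGs were present in 52.9% of the set and 16.4% of all, and among protein-coding genes in 40.5% and 12.8%. Without the genes that have a near-identical relative, the set had a median of 8.5 CpGs, and 42.1% held at most 5. Among genes with established symbols the medians were 13.5 in the set and 21 over all. The median log2 ratio of both compounds to vehicle also rose with CpGs over all genes of mean 100 or more. It was -0.08 at 0 to 5 CpGs and 0.11 above 20. The GC box, searched as GGGCGG on both strands like every motif here, was in 12 windows (23.5%, beside 57.5% of all genes of mean 100 or more and 35.9% of all RefSeq windows). Its share was 31.6% in the set without the genes that have a near-identical relative. The core of the hypoxia response element, ACGTG, was in 11.8%, beside 25.2% and 19.7%. The E-box CACGTG, which contains that core, was in 3.92%, beside 10.1% and 7.24%. The cyclic AMP response element, bound in spermatids by CREM, was searched as TGACGTCA and was in 0 windows, beside 3.51% and 1.88%. Its part TGACG was in 27.5%, beside 31.9% and 21.02%. The CCAAT box was in 45.1% (40.0% and 37.9%), the TATA box TATAAA in 9.80% (7.45% and 14.2%) and the AP-1 site TGACTCA in 7.84% (3.59% and 5.17%). A match describes letters in a window and says nothing of binding.

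**Figure D5:**
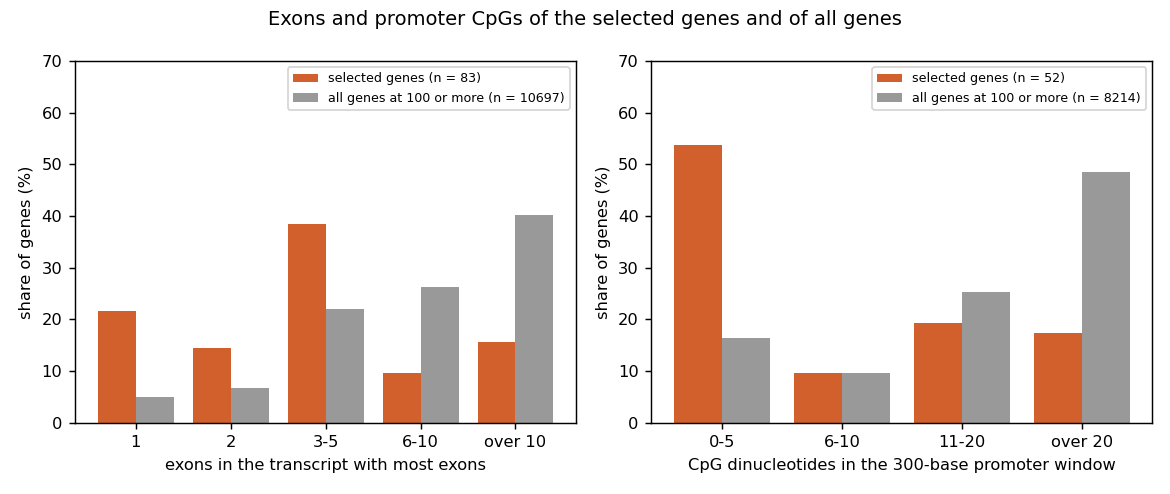
Share of the selected genes (orange) and of all genes of mean 100 or more (grey) by the number of exons in the transcript with most exons (left) and by the number of CpGs in the promoter window (right). The orange bars exceed the grey ones at 1 to 5 exons and at 0 to 5 CpGs, with 18 genes at 1 exon and 28 at 0 to 5 CpGs.

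None of the 61 2-oxoglutarate dioxygenase genes tested was in the set, and 33 of them had a mean of 100 or more, where 0.775% of all genes were selected. These are the enzymes with which L-2HG is known to compete. A list of this size would hold less than 1 selected gene at that share, so nothing is read from the absence. With both compounds against oxamate, 5 were called lower and 3 higher, beside 8.06% and 3.18% of all genes, and against vehicle 4 lower and 8 higher, beside 10.6% and 7.48%. With oxamate against vehicle, 9 were called higher, beside 3.97%, and 5 to 11 with a library left out, the fewest without vehicle library 1 and the most without oxamate library 4. With a library left out, 3 to 7 were lower than oxamate, the fewest without oxamate library 5 or libraries 7 or 9 with both compounds, and 0 to 3 higher, the fewest without oxamate library 5. Against vehicle, 3 to 6 were then lower and 5 to 11 higher, the latter fewest without vehicle library 2 or libraries 7 or 9 with both compounds. Kdm4b, a demethylase of histone H3 lysine 9, had 216 ± 16.8 with vehicle, 192 ± 24.4 with oxamate and 121 ± 6.75 with both (SD, n = 3). Its means met both fold limits, but its oxamate mean was 0.885 of vehicle, just outside the window. Its log2 change on adding octyl-L-2HG was -0.69 ± 0.12 (SE), with adjusted p = 0.0007 in edgeR. Kdm4a, its paralogue, had 527 ± 47.9 with vehicle, 669 ± 15.1 with oxamate and 509.5 ± 15.8 with both. Its log2 change on adding octyl-L-2HG was -0.42 ± 0.08 (SE), with adjusted p = 0.00211 in edgeR. Kdm2a, a demethylase of histone H3 lysine 36, had 625 ± 34.5 with vehicle, 758 ± 33.0 with oxamate and 963 ± 10.8 with both and was higher with both than with vehicle, by a log2 change of 0.60 ± 0.08 (SE) with adjusted p = 8.6e-06 in edgeR.

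The acrosome and sperm surface genes held 1 member, Tmem81, among 43 tested, all of mean 100 or more, where 0.775% of all genes were selected. With both compounds against oxamate, where 8.06% of all genes were called lower and 3.18% higher, 7 of them were called lower and 9 higher, with a median log2 change of 0.01, beside -0.04 over all genes tested. The genes tested include 14413 of mean under 100. The share called among genes of mean 100 or more alone was not computed, so these lists lack a background of like level. With a library left out, 4 to 10 were lower, the fewest without library 7 with both compounds, and 3 to 11 higher, the fewest without library 8 with both compounds. Genes of the fibrous sheath and outer dense fibres of the sperm tail held none, and 5 of 27 were called lower by edgeR and 0 higher (0 by DESeq2, 1 by edgeR at an unadjusted p under 0.05). The number lower was 2 to 10 with a library left out, the fewest without library 8 with both compounds and the most without oxamate library 4. Transcription regulators of spermatids held none either, with 6 lower and 1 higher of 22, and 3 to 7 lower with a library left out, the fewest without library 8 with both compounds. Taf7l, the germ cell paralogue of the selected gene Taf7, had 1143 ± 56.5 with vehicle, 1265 ± 97.2 with oxamate and 804 ± 16.8 with both, with a log2 change of -0.68 ± 0.08 (SE) on adding octyl-L-2HG and adjusted p = 6.9e-06 in edgeR. Of the 17 immediate early genes, 5 were called higher with oxamate, beside 3.97% of all genes, and 6 lower on adding octyl-L-2HG, beside 8.06%, and none was in the set. The lists for cholesterol and fatty acid synthesis, fatty acid oxidation, 2-hydroxyglutarate metabolism and the actin cytoskeleton held no member, and the number called lower against oxamate was 4 of 35, 0 of 28, 1 of 9 and 3 of 44 in that order, beside the same 8.06%. Of the fatty acid oxidation genes, DESeq2 called 0 lower, and 2 had an unadjusted p under 0.05 in edgeR.

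The limits of the set cut through a continuous range. Against oxamate, 1700016H13Rik at just below 0.65 and Jup at 0.646 lay just inside, and Fam24a at 0.651 and Gm4916 at 0.653 just outside. Against vehicle, 1700047G07Rik at 0.648 and Gm6093 at 0.640 lay inside, and Slc25a37 at 0.655 and Hs3st3b1 at 0.657 outside.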

How the data were processed

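RNA of sorted RS cells was captured by poly(A) and sequenced in 9 libraries, 3 per group. The submitters' processing notes name cutadapt 2.10, TopHat2 2.1.1, HTSeq 2.01 and DESeq2 1.36.0, and GRCm39. The authors deposited the read count per gene, not normalized, and a normalized signal per gene, the count divided by the size factor of its library. The strand setting of counting was not given, and 0 value columns went unused.

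Genes were selected on the normalized signal. The counts of 25128 genes with at least 10 reads in all entered edgeR 4.0.16 under R 4.3.3 (TMM, all 9 libraries in 1 quasi-likelihood fit, Benjamini-Hochberg, threshold 0.05), which was tested on simulated data. DESeq2 1.42.0, other scalings and filters and each library left out were alternatives. Exons, length and biotype came from GENCODE M21, promoters from RefSeq (both GRCm38), matched by identifier or symbol, and near-identical transcripts from BLAST 2.17.0.

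The members and lists were chosen with earlier results of these data known. Named were the 15 lowest members with an established symbol against vehicle, the 5 lowest provisional, the 5 most abundant, members in a list, 2 genes on each side of the fold limits, and, of the list genes called, those among the 2 with the smallest p that bear on the set.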

Additional observations from a re-analysis of the deposited data

How the results depend on the processing

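The number of genes meeting the rule followed its limits. It was 49 at a mean of at least 200, 51 with an oxamate window of 5% around vehicle, 136 with a window from 0.8 to its reciprocal, 40 at a fold limit of 0.6 and 148 at 0.7. It was 93 with TMM scaling, of which 82 were among the 83, and 120 with total counts, of which 79 were. With group medians it was 84, sharing 54. With each library left out it was 61 to 94, sharing 50 to 80. The fewest were shared without vehicle library 3 (50) and oxamate library 4 (51). The reverse rule gave 0 to 8 genes over all these settings. The median log2 ratio of both compounds to vehicle over the 83, -0.78, was -0.86 with total counts and -0.82 to -0.72 with libraries left out. Over the named genes and these scalings, medians and left-out libraries, the ratio to vehicle moved by more than the spread between replicates in 28 of the recomputed values and by less in 260.

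For both compounds against oxamate, 2025 genes were called lower and 798 higher (71.7% lower). The split was 2516 and 421 with total counts (85.7%), 1797 and 1429 without a filter (55.7%), and 1458 and 1061 with DESeq2 (57.9%). Leaving out libraries gave 1130 to 2842 lower and 238 to 1575 higher. Against vehicle, 2655 were lower and 1879 higher (58.6% lower), with 3365 and 1231 with total counts (73.2%), 2421 and 2690 without a filter (47.4%) and 1915 and 1985 with DESeq2 (49.1%), the larger side turning without a filter and with DESeq2, and 1799 to 3385 and 1162 to 2797 with libraries left out. For oxamate against vehicle, 306 were lower and 997 higher, with 125 to 720 and 544 to 1585 with libraries left out, the highest of both without oxamate library 4. The causes of these shifts were not tested. With the other tests, scalings and filters, the genes called lower against oxamate numbered 3 to 9 for 2-oxoglutarate dioxygenases, 6 to 10 for the acrosome (5 to 13 higher), 3 to 9 for the fibrous sheath and 4 to 8 for spermatid regulators. With a library left out they were 2 to 4 for cholesterol and fatty acid synthesis, 0 to 1 for fatty acid oxidation, 0 to 1 for 2-hydroxyglutarate metabolism and 1 to 5 for actin. No paired analysis was run because the groups share no replicate numbers, so a pairing of libraries could not be read from the labels.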

Other observations

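Broader gene groups, some of which hold selected genes, are given by their calls for both compounds against oxamate, beside 8.06% of all genes called lower and 3.18% higher. Histone genes had 7 lower and 0 higher of 57 (0 higher by DESeq2 and 0 by edgeR at an unadjusted p under 0.05), with a median log2 change of -0.29, beside -0.04 over all genes tested. Genes named for the testis or sperm (Spata, Tex, Spag, Tssk and others) had 22 lower and 1 higher of 91, and 12 to 30 lower with a library left out, the fewest without library 7. Genes with provisional names had 691 lower and 87 higher of 8720, and 353 to 1038 lower with a library left out, the fewest without oxamate library 5 and the most without oxamate library 4. Vesicle traffic had 12 lower and 10 higher of 267, with 8 to 16 lower and 1 to 35 higher when a library was left out. Microtubule motors and the axoneme had 15 lower and 14 higher of 182, with 5 to 19 and 2 to 26, and zinc finger transcription factors 38 lower and 32 higher of 440, with 19 to 49 and 9 to 45. In all 3 lists the fewest higher calls came without library 7 and the most without oxamate library 4. Against vehicle, where 10.6% of all genes were called lower and 7.48% higher, vesicle traffic had 16 lower and 38 higher of 267, with 27 to 54 higher when a library was left out. Microtubule motors and the axoneme had 16 lower and 35 higher of 182, with 17 to 64, and zinc finger transcription factors 27 lower and 51 higher of 440, with 33 to 68, again with the most without oxamate library 4 and the fewest without library 7.

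The 14413 genes with a mean under 100 had a median log2 ratio of both compounds to vehicle of -0.15 after adding 1 to each mean, and the 10715 others had 0.05 with nothing added. The normalized counts of the genes with a mean under 100 summed to 286751 to 298672 with vehicle, 274673 to 293164 with oxamate and 261442 to 267358 with both. Olfactory and vomeronasal receptor genes, which are scarcely transcribed here, summed to 8151 to 9849, 7932 to 9943 and 7478 to 7796, the lowest vehicle and oxamate values being those of libraries 1 and 4.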
